A study of Mus musculus with 6 samples.

Results

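The Fc receptor genes were followed here as 6 genes, chosen by the function of their proteins and not by their values: Fcgr1, Fcgr3 and Fcgr4, which encode activating receptors for IgG, Fcer1g, which encodes the signalling chain that these receptors share, Fcgr2b, which encodes the inhibitory IgG receptor, and Fcgrt, which encodes the neonatal Fc receptor. They were 6 of the 32287 features in the deposited gene table, and all 6 were among the 11148 genes that passed the filter on low counts. The study sorted CD11b hi cells that carried the tdTomato lineage mark (TOM) from lymph nodes, and measured their transcripts with 6 surface antibodies and 4 mouse hashtags in 2 droplet captures. All mice were Cd169Cre/+.Tdtomatofl/fl. Of the 4 mice, 2 were unimmunized and 2 had been immunized with hen egg lysozyme (HEL) and were taken at day 9. The mark is permanent and is carried by any cell that turned on Siglec1 (CD169) and by its progeny, so it is not a sign of CD169 at the time of the sort. The cells of all mice were pooled before capture, and each mouse is known by its hashtag. A mouse is therefore the replicate, and every p-value rests on at most 2 mice per condition. The main fit of gene levels had no term for the mouse, so it treated libraries of different gates from 1 mouse as independent. Its small p-values come from many libraries of the same 4 mice. A fit with the mouse as a block is an alternative. Unimmunized classical monocytes and monocyte-derived DCs and immunized gamma-delta T cells had 1 library each, which is assumed to vary like the other groups.

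Fc receptors bind the constant region of antibodies and link antibody-coated particles and immune complexes to the cell that holds them. Activating receptors of this family signal through the immunoreceptor tyrosine-based activation motifs of the common chain encoded by Fcer1g, which recruit the kinase Syk and lead to phagocytosis and oxidative burst. The inhibitory receptor carries its own inhibitory motif, recruits the phosphatase encoded by Inpp5d and restrains both activating receptors and the B cell antigen receptor. The neonatal receptor works inside the cell, where it binds IgG in acidic endosomes and returns it from degradation, and it also takes part in antigen presentation from immune complexes. In lymph nodes, macrophages and dendritic cells use these receptors to take up and hold immune complexes.

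Cells were assigned to 16 types by gates on marker transcripts, none of which was one of the 6 genes. The names below stand for cells that passed a gate and mean "like" that type. The gates were medullary sinus macrophage (MSM), tingible body macrophage (TBM-like), other C1q macrophage, inflammatory macrophage, interferon-high monocyte-derived cell, nonclassical and classical monocyte, neutrophil, monocyte-derived DC, cDC2, cDC1, migratory DC, gamma-delta T cell, alpha-beta T cell, NK cell and B cell. The gated cells held markers of their own type among their leading genes, such as Marco, Cd209b and Timd4 in the MSM gate and Xcr1 and Clec9a in the cDC1 gate. The cDC2 gate went against its name in part, because its 10 leading genes held 2 of its own markers and 3 of the monocyte-derived DC list. Its values are given as those of the gate, and the comparison that rests on it was also run without it. Lymphocyte gates held their T, NK or B cell genes although the sort was for CD11b hi cells.

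Of 18662 barcodes, 12139 cells were assigned to 1 mouse. Unimmunized mice 1 and 2 gave 2828 and 537 cells, and immunized mice 1 and 2 gave 4052 and 4722. The median number of transcripts per cell, counted as unique molecular identifiers (UMIs), was 5877 and 6280 for the unimmunized pair and 9674 and 12727.5 for the immunized pair, so depth moved with immunization. Gates took 6591 cells, and the UMIs of each mouse and gate were summed into 54 libraries, each of 10 cells or more, that held between 45878 and 17214546 UMIs. In 13 types both conditions had a library, and in 10 of them all 4 mice had one. TBM-like macrophages and inflammatory macrophages had libraries in the 2 immunized mice only, and neutrophils had 1 library of 11 cells. The captures shared 621 barcode sequences, and the 1242 cells that carried them were left out. In immunized mouse 2, the cDC1 library (19 cells) and the B cell library (37 cells) stood apart from the same gates in the other mice. The cDC1 library held a CPM (UMIs scaled to the total of the library) of 2540 for the C1q list against 247 to 692 in the other mice and 7985 of Lyz2, a lysozyme gene of myeloid cells, against 1005 to 2319. The B cell library held 4545 of Lyz2 against 615 to 1376. Its C1q list, at 409, lay within the 267 to 756 of the other mice. The other DC libraries of that mouse stood apart as well, with 982 of the C1q list against 67.3 to 387 in migratory DCs, 3399 against 655 and 1026 in monocyte-derived DCs and 691 against 128 to 324 in the cDC2 gate. Lyz2 in its migratory DC library was at 7040 against 510 to 2327. The immunization calls and the directions of Fcgr3 and Fcer1g over gates are given with and without these 5 libraries. The immunization difference of the receptor ratio is also given without gates that hold them. Levels, differences between types, counts of gates without overlap, averages over gates and correlations include these libraries.

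On the GRCm38 annotation, 4 of the 6 genes lie close together on chromosome 1: Fcgr2b at chr1:170958617-170976547 on the minus strand, Fcgr4 at chr1:171018920-171029761 on the plus strand, Fcgr3 at chr1:171051174-171064935 on the minus strand, and Fcer1g at chr1:171229572-171234365 on the minus strand. Fcgr1 lies at chr3:96282909-96293969 and Fcgrt at chr7:45092990-45103851, both on the minus strand. Small annotated genes overlap Fcgr2b (Gm38204), Fcgr4 (Gm26110), Fcgr3 (Mir6546) and Fcgrt (Gm45669). With 1 transcript per gene, the first by name, set against all transcripts of the other gene, 18.1% of the 30-base stretches of Fcgr3 also occurred in Fcgr2b and 7.2% of those of Fcgr2b in Fcgr3. In the last 500 bases of either transcript, where most reads of a 3′ library fall, the share was 0%. No other pair of the 6 shared a 30-base stretch.

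The promoters of Fcgr1 and Fcgr4 are shown because these activating genes had their highest mean levels among gates with all 4 mice in interferon-high cells and nonclassical monocytes, in that order, and each held a match to an interferon motif. Both windows are the 250 bases before the transcription start, from RefSeq on GRCm38.p6, with matches to the searched motifs in capitals. Fcgr1 is chr3:96293970-96294219, minus strand, and Fcgr4 is chr1:171018676-171018925, plus strand.
Fcgr1: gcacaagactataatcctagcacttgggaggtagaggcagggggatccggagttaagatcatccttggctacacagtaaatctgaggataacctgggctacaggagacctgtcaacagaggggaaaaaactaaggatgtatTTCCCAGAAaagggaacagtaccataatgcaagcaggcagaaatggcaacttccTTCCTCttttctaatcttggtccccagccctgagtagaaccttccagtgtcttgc
Fcgr4: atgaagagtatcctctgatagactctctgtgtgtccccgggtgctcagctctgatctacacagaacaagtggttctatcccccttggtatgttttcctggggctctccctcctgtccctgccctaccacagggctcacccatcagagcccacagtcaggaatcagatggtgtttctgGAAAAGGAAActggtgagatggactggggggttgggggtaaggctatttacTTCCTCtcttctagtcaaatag

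Promoters of all 6 genes were searched on both strands for 3 motifs. The interferon-gamma-activated site, TTCNNNGAA, was found in Fcgr1 only, 109 to 101 bases before the start, and in 7.02% of 32841 mouse promoters. The interferon-stimulated response element, TTTC and TTTC with any 2 bases between them, was found in Fcgr4 only, on the reverse strand 73 to 64 bases before the start, and in 2.98% of promoters. The PU.1 core, GAGGAA, was found in Fcgr1, Fcgr3 and Fcgr4 and in 23.3% of promoters. These are matches of letters and no measure of binding.

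Among the 13 types with both conditions, the activating receptors and their chain were highest in monocytes, interferon-high cells and C1q macrophages, the inhibitory receptor was highest in other C1q macrophages, and the neonatal receptor was highest in cDC1. Lymphocytes were low in all 6 genes, with the exception of Fcer1g and Fcgr3 in NK cells and Fcgr2b in B cells. Each of the 13 types with both conditions was set against the mean of the other 12, each with equal weight, in edgeR's quasi-likelihood fit over all libraries and genes. Of 78 gene and type pairs, 46 passed the adjusted threshold of 0.05, 29 higher and 17 lower. Over all genes, 19.0% of gene and type pairs passed, 13.7% higher and 5.32% lower. By type, all 6 genes rose in other C1q macrophages, 5 in interferon-high cells, 5 in nonclassical monocytes, 4 in classical monocytes and 4 in monocyte-derived DCs, and none of the 6 fell in these types. In alpha-beta T cells 4 fell, in gamma-delta T cells 4, in B cells 3 and in migratory DCs 2. The count was 24 of 66 without unimmunized mouse 1 and 28 of 65 with every cell thinned to 1000 UMIs.

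**Figure D1:**
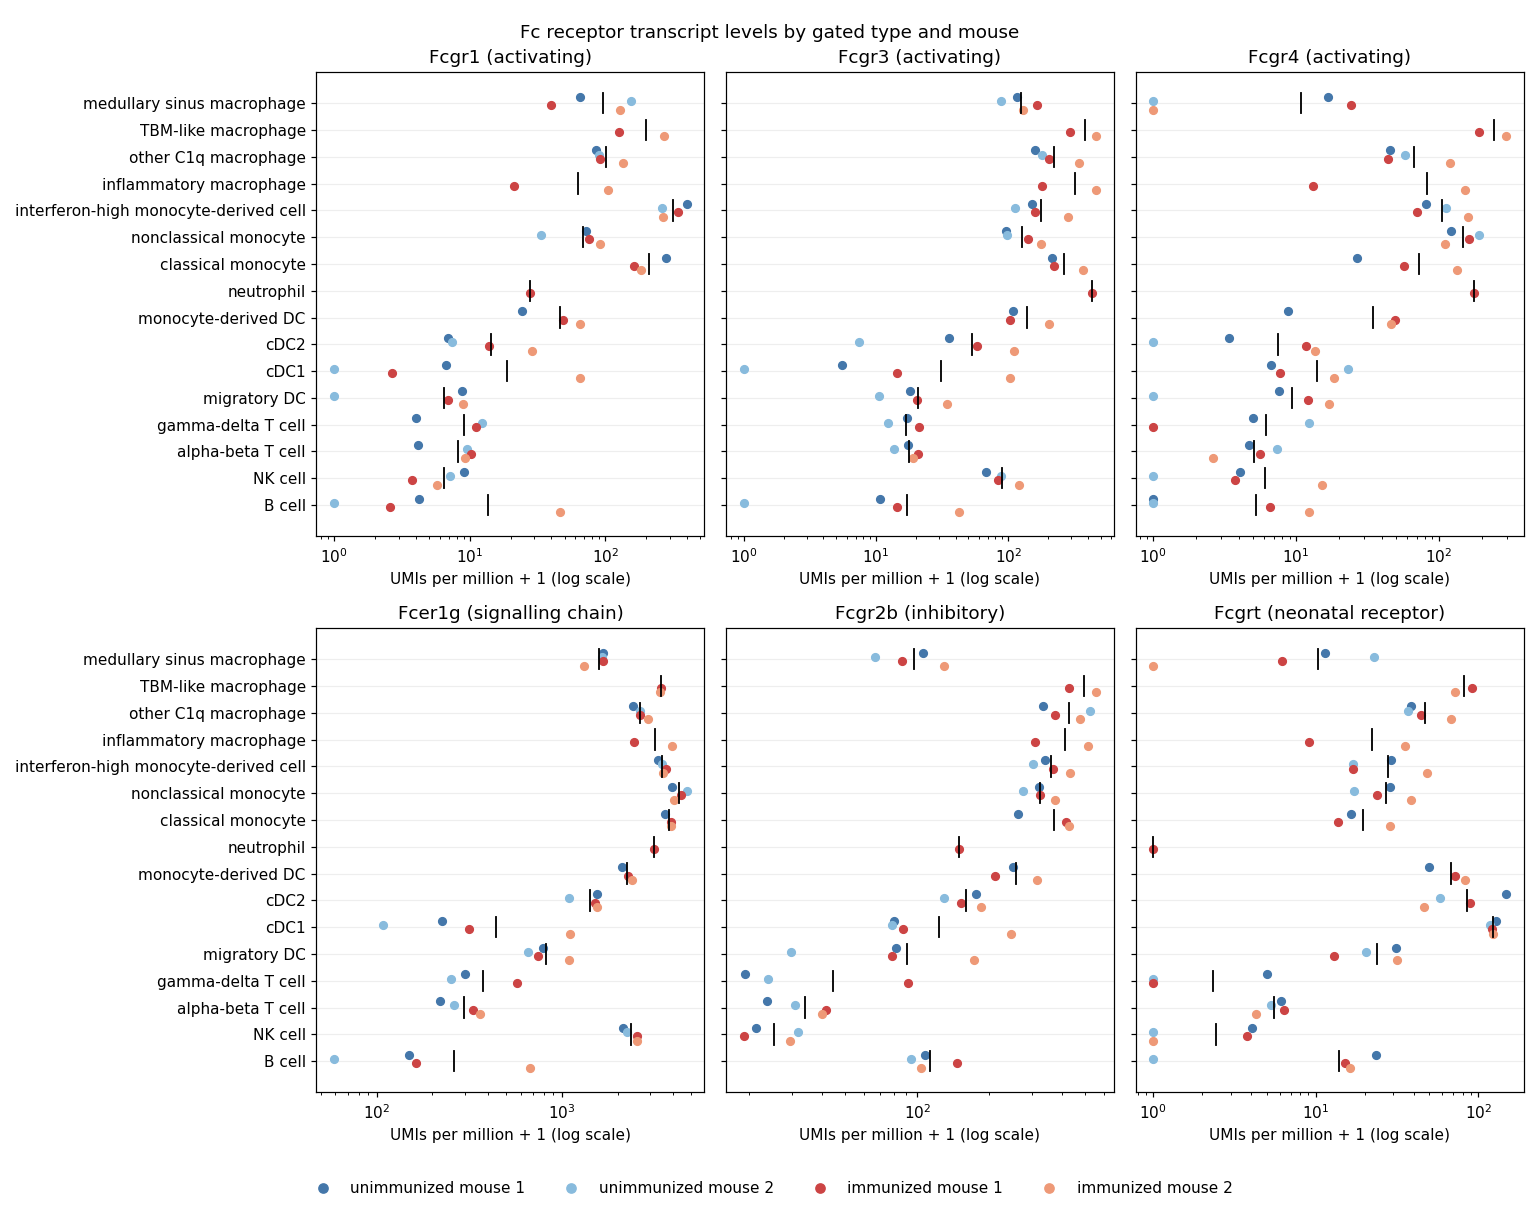
Level of each of the 6 Fc receptor genes (x axis, CPM plus 1, log scale, with its own range in each panel) in each gated type (y axis). Each point is 1 mouse and the vertical bar is the mean over mice. Fcer1g lay above a CPM of 1000 in every myeloid library outside the cDC1 and migratory DC gates, and the 4 cDC1 points of Fcgrt lay together at 118 to 128.

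In the values that follow, levels are in CPM and are given for unimmunized mouse 1, unimmunized mouse 2, immunized mouse 1 and immunized mouse 2, in that order. They count 3′ ends and were not divided by transcript length. Fold changes are fitted log2 values with their standard error (SE).

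Fcgr1, which encodes the high-affinity IgG receptor, was highest in interferon-high monocyte-derived cells, at 397, 262, 345 and 264. This was higher than the mean of the other types by 4.16 on the log2 scale (SE 0.27, adjusted p = 1.33e-16, edgeR). All 4 mice lay above every library of the nonclassical monocyte, C1q macrophage, DC and lymphocyte gates. Classical monocytes followed, at 278 in unimmunized mouse 1 and 162 and 181 in the immunized mice (log2 3.45, SE 0.36). Other C1q macrophages had 84.5, 89.4, 90.2 and 133 (log2 2.26, SE 0.32), and nonclassical monocytes rose by 1.74 (SE 0.32). MSMs spread more widely, at 64.1, 153, 38.9 and 128, and rose by 1.37 (SE 0.46, adjusted p = 0.0248). The high and low MSM values did not follow immunization, and the 2 highest came from libraries of 16 and 13 cells. The MSM rise no longer passed without unimmunized mouse 1 (3.03, adjusted p = 0.144) or mouse 2 (1.32, adjusted p = 0.0966), with stricter gates (0.89), with HTODemux (0.85), in capture 1 (1.18) or with libraries of at least 20 cells (1.44). The nonclassical monocyte rise did not pass without unimmunized mouse 1 (2.36, adjusted p = 0.247). Means in the 3 conventional and migratory DC gates and the 4 lymphocyte gates were 17.9 or less. Of these, migratory DCs, alpha-beta T cells, NK cells and B cells fell, by 1.73 to 2.54 on the log2 scale. The falls in migratory DCs and B cells did not pass without unimmunized mouse 2 (adjusted p = 0.107 and 0.182). In the order of the 16 means, no gate had a range over mice apart from that of its neighbour.

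Fcgr3, the activating receptor for immune complexes on most myeloid cells and on NK cells, was spread more evenly over the myeloid gates. Classical monocytes had 211 in unimmunized mouse 1 and 220 and 363 in the immunized mice (log2 2.29, SE 0.32, adjusted p = 8.83e-07). Other C1q macrophages had 159, 179, 203 and 341 (log2 2.11, SE 0.23, adjusted p = 3.39e-09). In both gates immunized mouse 2 was the highest, and the other values lay close together. Interferon-high cells, monocyte-derived DCs, nonclassical monocytes and MSMs also rose, by 1.15 to 1.82. The MSM value, 1.15, became 0.54 (adjusted p = 0.471) without immunized mouse 1 and 2.05 (adjusted p = 0.33) without unimmunized mouse 1, and the monocyte-derived DC rise did not pass without unimmunized mouse 2 (adjusted p = 0.0594). NK cells had 66.7, 86.5, 82.7 and 119, the highest of the lymphocyte gates and above each of their libraries, while their difference from the mean of all other types was 0.44 (SE 0.29, adjusted p = 0.324). cDC1 had 4.51, 0, 13.5 and 102, so that 1 library carried most of the level, and 0 of 271714 UMIs in unimmunized mouse 2 allows a CPM of up to 11.04. B cells had 9.69, 0, 13.4 and 41.7. Both gates fell against the other types, by 2.17 (SE 0.48) and 2.35 (SE 0.53) on the log2 scale. Migratory DCs, at 17.0, 9.62, 19.6 and 33.2, and alpha-beta T cells, at 16.5, 12.8, 19.9 and 18.0, fell by 1.41 and 2.00. Gamma-delta T cells fell by 2.11, which did not pass without unimmunized mouse 2 (adjusted p = 0.0738).

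Fcgr4, the activating receptor associated with Ly6C-low monocytes in mice, was the most restricted activating gene. Among gates with all 4 mice, nonclassical monocytes led with 121, 189, 162 and 110, and interferon-high cells had 80.0, 111, 69.3 and 159. The ranges of these gates overlapped. Other C1q macrophages had 44.7, 57.2, 43.2 and 119, of which only immunized mouse 2 reached the level of the monocytes. These were the 3 gates that rose, by 3.94 (SE 0.31), 3.50 (SE 0.43) and 2.73 (SE 0.43) in edgeR. Because Fcgr4 had 0 UMIs in the unimmunized B cell and immunized gamma-delta T cell libraries, these fitted values depend on the prior count, and 5 of the 13 contrasts gave no finite estimate. The same contrasts in limma-voom gave 3.43, 3.00 and 2.25. Classical monocytes had 25.8 in unimmunized mouse 1 and 56.0 and 134 in the immunized mice (log2 2.26, SE 0.89, adjusted p = 0.115), and the rise passed once the mouse entered the fit as a block (log2 2.21, adjusted p = 0.0489). MSMs, which rose for Fcgr1 and Fcgr3, had 15.7, 0, 23.4 and 0, with 0 allowing a CPM of up to 65.4 and 63.9 in the small libraries.

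Fcer1g was high in the monocyte gates, in NK cells and in the macrophage gates other than MSMs. MSMs had 1671, 1657, 1677 and 1320 (log2 0.20, SE 0.21, adjusted p = 0.592, edgeR). Nonclassical monocytes led with 3914, 4718, 4397 and 4032 (log2 2.01, SE 0.17, adjusted p = 4.65e-13), and all 4 lay above the 3 classical monocyte libraries at 3592 to 3908. Interferon-high cells, C1q macrophages and monocyte-derived DCs rose by 1.77, 1.30 and 1.00. NK cells, in which this chain serves the IgG receptor and other activating receptors, had 2133, 2249, 2559 and 2560 and rose by 0.91 (SE 0.19, adjusted p = 0.000158). Their range overlapped that of monocyte-derived DCs, while the other 3 lymphocyte gates had means of 260 to 375. Among DC gates the order was monocyte-derived DC at 2254, cDC2 at 1425, migratory DC at 820 and cDC1 at 440. cDC1 had 225, 107, 315 and 1113 and fell by 1.82 (SE 0.24), and B cells had 149, 58.0, 162 and 670 and fell by 2.67 (SE 0.28). In the last 2 gates the high value came from the libraries of immunized mouse 2 described above. Going down the means, the ranges of neighbouring gates were apart between nonclassical and classical monocytes, neutrophils and C1q macrophages, monocyte-derived DCs and MSMs, and cDC2 and migratory DCs.

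Fcgr2b, the inhibitory receptor, was present in every gate. Other C1q macrophages had 333, 526, 374 and 476 (log2 1.96, SE 0.16, adjusted p = 1.02e-12). Classical monocytes had 263, 418 and 427, and interferon-high cells had 341, 302, 366 and 433. The ranges of these 3 gates overlapped, and all 3 rose, as did nonclassical monocytes (1.52, SE 0.16) and monocyte-derived DCs (1.14, SE 0.21). MSMs were far lower than the C1q macrophages, at 105, 65.4, 85.7 and 128, with no overlap, and differed from the mean of the other types by -0.57 (SE 0.25, adjusted p = 0.0986). B cells, for which Fcgr2b is the only classical IgG receptor, had 107, 92.8, 145 and 102, close to cDC1 and MSM (log2 -0.12, SE 0.23, adjusted p = 0.916). NK cells had 20.2, 30.9, 17.9 and 28.6 and fell by 2.88 (SE 0.29, adjusted p = 9.37e-11). Alpha-beta and gamma-delta T cells fell by 2.30 and 2.03, the latter not without unimmunized mouse 1 (adjusted p = 0.116). cDC1 had 79.0, 77.3, 86.3 and 245, with immunized mouse 2 apart from the others. The ranges of monocyte-derived DCs and cDC2 were apart, and those of every other pair of neighbours overlapped.

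Fcgrt, the neonatal receptor, was nearly the same in the 4 cDC1 libraries, at 128, 118, 120 and 122 (121.9 ± 4.16, SD, n = 4). The cDC2 gate had 147, 57.5, 87.7 and 45.1, of which unimmunized mouse 1 lay above the cDC1 values and the other 3 below them. Monocyte-derived DCs had 48.8, 70.7 and 82.4, and C1q macrophages had 37.3, 35.8, 43.5 and 66.6. These 4 gates rose, by 3.21 (SE 0.26), 2.65 (SE 0.26), 2.04 (SE 0.43) and 1.58 (SE 0.36), or 2.93, 2.33, 1.78 and 1.33 in limma-voom. Both are given because Fcgrt had 0 UMIs in the immunized gamma-delta T cell library, and edgeR's values then depend on the prior count. Migratory DCs, at 30.01, 19.2, 11.9 and 30.5, lay below every cDC1 library (log2 0.74, SE 0.43, adjusted p = 0.218). MSMs had 10.5, 21.8, 5.19 and 0. Means were 4.50 or less in the T and NK cell gates, and the fall in gamma-delta T cells (edgeR adjusted p = 0.0318) was not called by limma-voom. The cDC1 library of immunized mouse 2, which was the highest of its gate by far for Fcgr1, Fcgr3, Fcer1g and Fcgr2b, did not stand apart for Fcgrt.

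For the gates with libraries in immunized mice only, the comparison was with the other types in those mice. Of 18 gene and type pairs 12 passed, all higher and 11 of them in the 2 gates with both mice, against 10.1% of pairs over all genes (8.36% higher). TBM-like macrophages, named after the macrophages that clear apoptotic B cells in germinal centres, were higher in all 6 genes. In immunized mice 1 and 2 they had 126 and 270 for Fcgr1, 293 and 460 for Fcgr3, and 190 and 293 for Fcgr4. The Fcgr4 mean was the highest of any gate, though its lower value was close to the highest nonclassical monocyte library, at 189. Fcgr2b was at 430 and 557, also the highest mean of any gate, with a range that overlapped that of other C1q macrophages (333 to 526). Fcgrt was at 90.2 and 71.2. The rises were 2.69 (SE 0.33) for Fcgr1, 1.96 (SE 0.27) for Fcgr3, 3.55 (SE 0.34) for Fcgr4, 1.10 (SE 0.25) for Fcer1g, 1.63 (SE 0.21) for Fcgr2b and 2.85 (SE 0.44) for Fcgrt. The values of Fcgr4 and Fcgrt depend on the prior count, because both had 0 UMIs in immunized gamma-delta T cells, and Fcgrt also in neutrophils. limma-voom gave 3.20 for Fcgr4 and 2.02 for Fcgrt. Inflammatory macrophages were higher in 5 of 6, all but Fcgrt, but their 2 mice were far apart for Fcgr4, at 12.1 and 152, and for Fcgr1, at 20.2 and 103. The rise of Fcgr1 did not pass when unimmunized mouse 1, unimmunized mouse 2 or immunized mouse 2 was left out (adjusted p = 0.0600, 0.0583 and 1.0). The single neutrophil library had 430 for Fcgr3 (log2 2.11, SE 0.57, adjusted p = 0.0159) and 175 for Fcgr4 (adjusted p = 0.0764), and 0 UMIs of Fcgrt, which allows a CPM of up to 40.3. This arm is 1 mouse and 11 cells, so the spread behind its p-values is that of the other groups and no replicate checks them. Blocking on the mouse, Fcgr4 (3.34, adjusted p = 0.00842) and Fcer1g (1.07, adjusted p = 0.0291) also passed in it.

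Activating and inhibitory receptors were set against each other within each library as the log2 ratio of summed Fcgr1, Fcgr3 and Fcgr4 UMIs to Fcgr2b UMIs, with 0.5 added to each. Capture of 3′ ends can differ between the genes, so the ratio is read between gates and not as a balance of proteins. NK cells leaned most to the activating side among gates with all 4 mice, at 1.92, 1.49, 2.26 and 2.18, which is 75.0% to 83.1% activating UMIs. MSMs came next, at 0.89, 1.72, 1.39 and 0.94. Interferon-high cells were tight at 0.87, 0.68, 0.65 and 0.70. Classical monocytes had 0.96 in unimmunized mouse 1 and 0.07 and 0.67 in the immunized mice. TBM-like macrophages had 0.50 and 0.88 in the immunized mice. Nonclassical monocytes lay near equal numbers, at -0.15, 0.21, 0.21 and 0.01, and C1q macrophages had -0.21, -0.69, -0.15 and 0.32.

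The gates with a log2 ratio below 0 in every library were the DCs and B cells. Means of C1q macrophages, inflammatory macrophages and both T cell gates were also below 0, with libraries on both sides. Monocyte-derived DCs had -0.84 in unimmunized mouse 1 and -0.08 and -0.02 in the immunized mice. The immunized values were not apart from equal numbers (exact 95% intervals 40.2% to 57.1% and 41.9% to 57.5% activating). With no library in unimmunized mouse 2, monocyte-derived DCs are not in the comparison of macrophages and DCs below. Migratory DCs had -1.35, -1.22, -1.07 and -1.57, the cDC2 gate had -2.01, -3.04, -0.89 and -0.30, and cDC1 had -2.28, -1.73, -1.93 and -0.41. B cells had -2.90, -4.09 and -2.80 in the first 3 mice and -0.05 in immunized mouse 2, in which 26 of 53 receptor UMIs were activating (49.1%, exact 95% interval 35.1% to 63.2%, for counting error only). Every MSM and NK cell library lay above every library of the cDC1, cDC2, migratory DC and B cell gates. The MSM libraries also all lay above the C1q macrophage libraries. Some of these values rest on few UMIs. MSMs had 11 activating and 3 Fcgr2b UMIs in unimmunized mouse 2 (exact 95% interval 49.2% to 95.3% activating). In immunized mouse 2 they had 12 and 6 (41.0% to 86.7%). Both intervals hold the 55.5% of C1q macrophages in immunized mouse 2. Migratory DCs of unimmunized mouse 2 had 1 and 3 (0.631% to 80.6%).

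**Figure D2:**
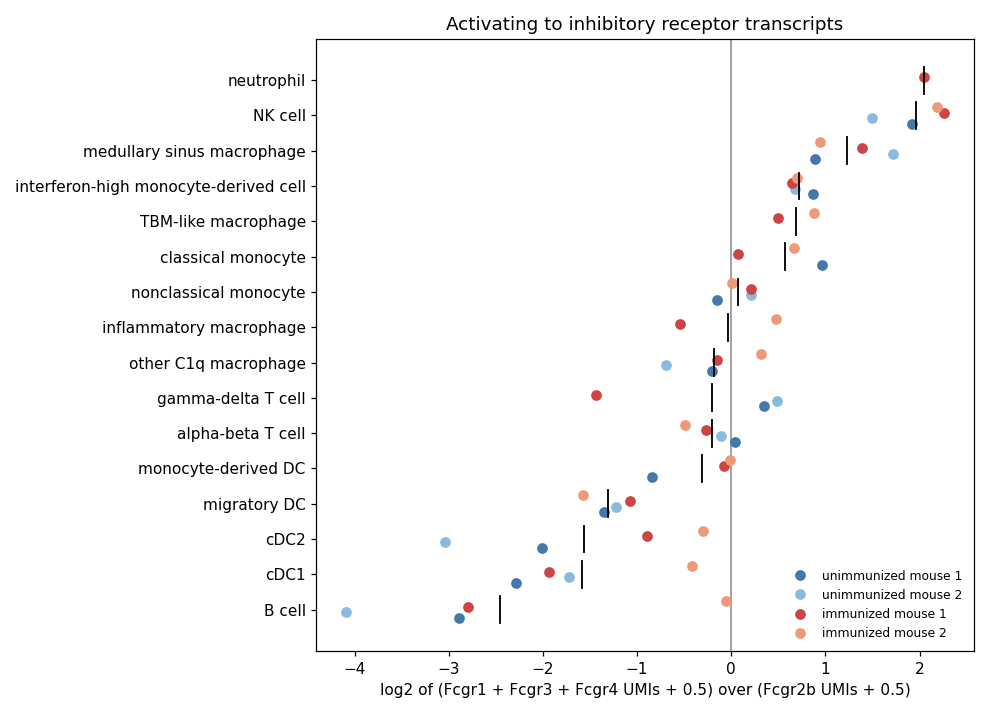
Log2 ratio of activating to inhibitory receptor UMIs (x axis) in each gated type (y axis, ordered by the mean). Each point is 1 mouse, the vertical bar is the mean over mice, and the grey line marks equal numbers. Neutrophils, NK cells, MSMs, interferon-high cells, TBM-like macrophages and classical monocytes were on the activating side in every library. Monocyte-derived DCs, migratory DCs, cDC2, cDC1 and B cells were on the inhibitory side in every library.

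Within each mouse, the mean ratio of the MSM and C1q macrophage gates exceeded that of the cDC2, cDC1 and migratory DC gates by 2.23, 2.51, 1.92 and 1.39, a mean of 2.01 ± 0.48 (SD, n = 4). The difference was above 0 in 4 of 4 mice, and the exact two-sided sign-flip test over the mice gave p = 0.13, the smallest that 4 mice allow. Without the cDC2 gate the difference was 1.97. It was 2.02 in capture 1 and 1.17 in capture 2. Each of these rests on only 2 gates with enough cells, a macrophage gate and a DC gate, in place of the 5 above.

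At the level of single cells, activating and inhibitory transcripts were seen together mainly in C1q macrophages and monocytes. Cells were thinned to 1000 UMIs each, which left out 11 cells, and scored for a UMI of any activating gene and of Fcgr2b. Both were found in 19.6% ± 2.71 (SD, n = 2) of TBM-like macrophages, 11.3% ± 4.09 (SD, n = 4) of other C1q macrophages and 10.7% ± 2.37 (SD, n = 4) of interferon-high cells. The share in alpha-beta T cells was 0.142% ± 0.284 (SD, n = 4), and the source of their receptor UMIs was not tested. In unthinned cells the same 4 gates gave 94.8%, 75.5%, 82.9% and 3.37%, and their cells held a median of 13978.5, 13801.5, 12164 and 6311 UMIs.

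NK cells had an activating UMI alone in 9.90% ± 6.18 and Fcgr2b alone in 0.681% ± 0.900 (SD, n = 4), the latter below the 1.64% of alpha-beta T cells. B cells were the reverse, with Fcgr2b alone in 7.81% ± 4.41 and an activating UMI alone in 1.17% ± 1.16, the latter below the 1.57% of alpha-beta T cells. MSMs had an activating UMI alone in 27.7% ± 9.34 and both in 0.527% ± 0.612. Without thinning these were 31.1% and 5.06% in NK cells, 31.9% and 3.35% in B cells, and 37.0% and 8.50% in MSMs, whose median depth was 2092 UMIs.

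**Figure D3:**
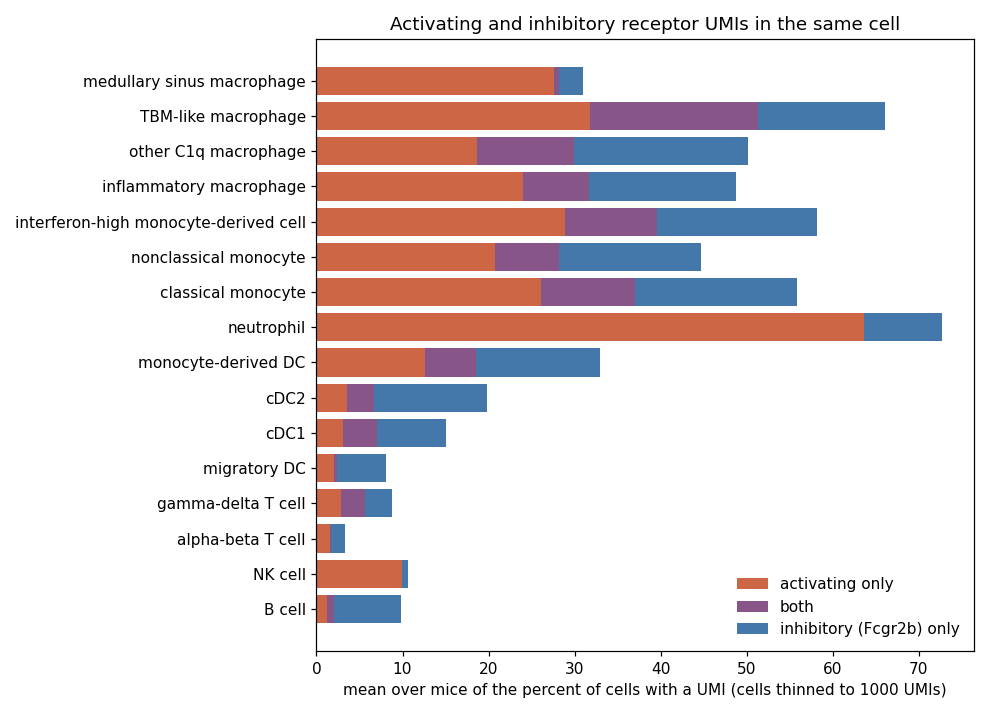
Mean over mice of the percent of cells, thinned to 1000 UMIs, with a UMI of an activating receptor gene only, of Fcgr2b only, or of both (x axis), in each gated type (y axis). The share with both was 19.6% in TBM-like macrophages and 0.142% in alpha-beta T cells, and NK cells and B cells were split to opposite sides. The neutrophil bar is 1 library of 11 cells.

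Immunization was compared within each gate, so that a change in the mix of cells between gates does not enter. Of 78 gene and type pairs, 1 passed the threshold, against 0.0552% of pairs over all genes (0.0324% higher). An unadjusted p under 0.05 was found for 12 of the 78, against 6.36% of pairs over all genes. The pair past the threshold was Fcer1g in cDC1, which rose by 1.97 (SE 0.42, adjusted p = 0.0361, edgeR). Both immunized values, 315 and 1113, lay above 225 and 107, but the rise rested on immunized mouse 2, whose library also held the C1q and Lyz2 transcripts given above. Without the cDC1 and B cell libraries of that mouse the difference was 0.94 (adjusted p = 1.0) and 0 of 78 pairs passed. limma-voom called 0 of 78. Without all 5 DC and B cell libraries of that mouse it was 0.93 (adjusted p = 1.0) and again 0 of 78 passed. With the mouse as a block, 3 passed: Fcer1g in cDC1 (1.94, adjusted p = 0.00141), Fcgr3 in cDC1 (3.83, adjusted p = 0.00139) and Fcgr3 in the cDC2 gate (1.64, adjusted p = 0.0381). Calls over all genes also rose with the block, to 436 of 144924 pairs against 80 without it. The part of the C1q and Lyz2 transcripts in the cDC1 and cDC2 values was not tested.

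**Figure D4:**
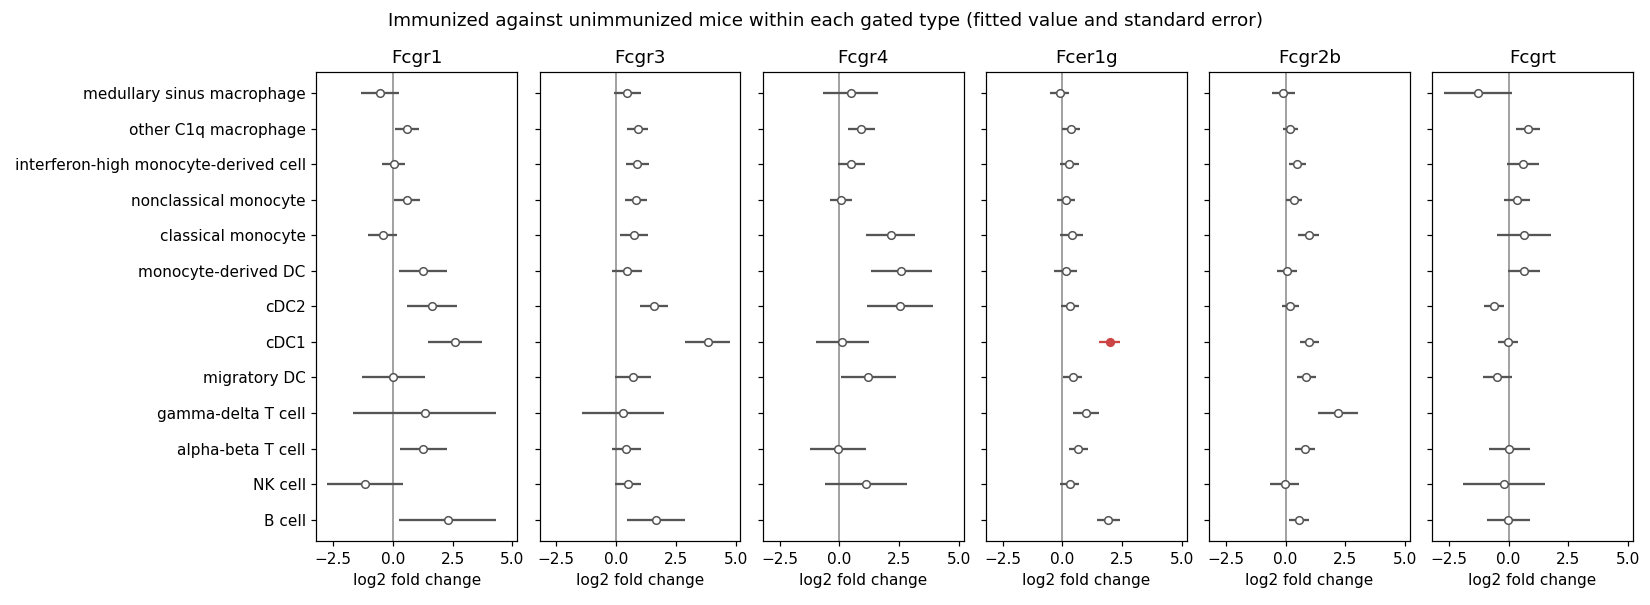
Fitted log2 fold change, immunized against unimmunized, of each gene within each gated type with libraries in both conditions, with its standard error. The filled point is the 1 pair past the threshold (Fcer1g in cDC1), open points are the others, and 3 pairs with 0 UMIs in a condition are not drawn. Fcgr3 was above 0 in all 13 gates, and none of those values passed the threshold.

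In the edgeR fit over all libraries, Fcgr3 was the gene with the steadiest direction, though not in every alternative. Its fitted difference was above 0 in 13 of 13 gates, from 0.30 to 3.84 with a median of 0.74, and 0 of the 13 passed in edgeR or limma-voom. In edgeR, 3 of the 13 had an unadjusted p under 0.05, against 6.36% of pairs over all genes. Without the 5 DC and B cell libraries of immunized mouse 2 the Fcgr3 difference was above 0 in 12 of 13 gates, from -0.08 to 2.05, and without immunized mouse 2 also in 12 of 13. Fcer1g was above 0 in 12 of 13 gates over all libraries and in 12 of 13 without those 5 libraries. Without immunized mouse 2 it was above 0 in 13 of 13. For Fcgr3, nonclassical monocytes had 95.5 and 97.4 unimmunized and 139 and 176 immunized (log2 0.85, SE 0.46, adjusted p = 0.691). C1q macrophages had 159 and 179 against 203 and 341 (log2 0.91, SE 0.44, adjusted p = 0.664). In these gates the conditions did not overlap, and neither difference passed the threshold. In 9 of the 10 gates with all 4 mice both immunized values of Fcgr3 lay above both unimmunized values, while over all genes 16.4% of gene and type pairs did so and 20.1% lay the other way round. The gates share the same 4 mice and are not independent. Averaged over the gates with all 4 mice, log2 of CPM plus 1 was 5.34 and 4.39 without and 5.82 and 6.62 with immunization. The cDC1 and B cell libraries of unimmunized mouse 2, with 0 UMIs of Fcgr3, entered as 0.

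By this count of gates, the other 5 genes were less even. Both immunized values lay above both unimmunized values in 5 of 10 gates for Fcer1g, 4 for Fcgr2b, 3 for Fcgr4, 3 for Fcgr1 and 1 for Fcgrt. The share over all gene and type pairs was 16.4%. Averaged over gates in the same way, Fcgr4 was 3.45 and 2.77 against 4.08 and 4.20, Fcer1g 9.97 and 9.73 against 10.15 and 10.57, and Fcgr2b 6.77 and 6.61 against 6.87 and 7.30. For these genes the conditions did not overlap, and the share of all genes for which such averages do not overlap is not given. Libraries with 0 UMIs entered as 0. For Fcgr4 these were the MSM, cDC2, migratory DC, NK and B cell libraries of unimmunized mouse 2, where 0 allows a CPM of up to 18.5 to 65.4. The B cell library of unimmunized mouse 1 and the MSM library of immunized mouse 2 were also at 0. The part of library size in the Fcgr4 averages was not tested. Fcgr1 was 4.32 and 3.58 against 4.12 and 5.40, and Fcgrt was 4.68 and 3.74 against 4.23 and 4.05, and for both the conditions overlapped. Depth per cell followed the same order of conditions, and its part in these differences was not tested.

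Among single gates, Fcgr1 in interferon-high cells was 397 and 262 unimmunized and 345 and 264 immunized, with a difference of 0.03 (SE 0.47). Fcgr2b in C1q macrophages was 333 and 526 against 374 and 476, with a difference of 0.21 (SE 0.33). In both, the values overlapped. Fcgr4 in classical monocytes was 25.8 in the 1 unimmunized library, of 17 cells and 5 UMIs, and 56.0 and 134 in the immunized ones (log2 2.15, SE 1.01, unadjusted p = 0.0396, adjusted p = 0.741). Without immunized mouse 1, Fcgr3 was above 0 in 11 of 12 gates, from -0.15 to 4.84. It was 1.15 in C1q macrophages, 1.16 in interferon-high cells, 0.98 in nonclassical monocytes, 1.97 in the cDC2 gate and 4.84 in cDC1. The remaining immunized mouse is then assumed to vary like the other groups. Calls with a mouse left out are not read as a result about these genes, because their share over all genes is not given.

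Whether the immunization difference varied between gates was tested for each gene over the 13 gates. For 0 of the 6 genes did it pass, against 0.0807% of all genes, and Fcer1g alone had an unadjusted p under 0.05 (0.0285), as did 4.3% of all genes. This changed without immunized mouse 1, in a fit that leaves 1 immunized mouse. The share over all genes in that fit is not given. DESeq2 and limma-voom also called 0 of 6.

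The ratio of activating to inhibitory receptors, averaged over the 10 gates, was -0.52 and -0.68 without and -0.26 and 0.13 with immunization, a difference of 0.53 on the log2 scale. Both immunized mice lay above both unimmunized mice. The exact two-sided permutation test gave p = 0.333, the smallest that 2 against 2 mice allow. Within captures the difference was 0.51 over 5 gates in capture 1 and 0.92 over 6 gates in capture 2. It was 0.25 with 5 UMIs added to each sum in place of 0.5, 0.14 without immunized mouse 2, 0.30 over 8 gates without the cDC1 and B cell gates, and 0.09 over the 6 gates left without cDC2 and migratory DCs as well. By gate, the ratio was higher in the immunized mice by 2.07 in B cells, in which unimmunized mouse 2 had 0 activating and 8 Fcgr2b UMIs, by 1.93 in the cDC2 gate, 0.83 in cDC1, 0.53 in C1q macrophages, 0.51 in NK cells and 0.08 in nonclassical monocytes. It differed by -0.04 in migratory DCs, -0.10 in interferon-high cells, -0.14 in MSMs and -0.34 in alpha-beta T cells, where both immunized mice lay below both unimmunized mice. Leaving Fcgr3 out of the activating sum took the mean difference to 0.26.

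Other genes of Fc receptor signalling were taken from 4 lists of 58 genes, of which 52 were tested. In nonclassical monocytes 34 of the 52 were higher and 0 lower, with a median log2 difference of 0.69 against 0.11 over all genes, of which 15.9% were higher and 2.11% lower. These were 3 of 8 among other immunoglobulin receptors, 16 of 23 in activating signalling, 7 of 10 in inhibitory signalling and 8 of 11 of the NADPH oxidase and phagocytosis list. The largest rises were Fcrl5 (5.21, SE 0.85) and Fcrl1 (2.66, SE 0.35), Fc receptor-like genes known best from B cells, and Fgr (2.45, SE 0.14), a Src-family kinase. Interferon-high cells had 23 higher and 2 lower, where 12.5% and 2.06% of all genes were, led by Cybb (2.23, SE 0.22), the catalytic subunit of the phagocyte oxidase. Classical monocytes had 18 higher and 1 lower, where 7.71% and 1.38% of all genes were, with Cybb (2.33, SE 0.25) in front.

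C1q macrophages had 22 of the 52 higher and 2 lower, with 10 of 23 in activating signalling, 5 of 10 in inhibitory signalling and a median of 0.40 against 0.13 over all genes, of which 12.6% were higher and 1.84% lower. Their largest rises were Fcrls (5.08, SE 1.13), a soluble Fc receptor-like gene, Gab2 (1.59, SE 0.35), an adaptor, and Inppl1 (1.58, SE 0.30), a phosphatase related to Inpp5d. Fyn, a Src-family kinase of lymphocytes, fell (-1.69, SE 0.33). MSMs had 9 higher and 9 lower with a median of 0.01 against -0.06 over all genes, of which 24.9% passed and 10.9% were lower, and 5 of 11 oxidase and phagocytosis genes fell. Among them Coro1a, an actin-binding coronin, fell by 1.84 (SE 0.15), while the kinase Src rose by 4.03 (SE 0.50). In TBM-like macrophages 15 were higher and 1 lower among immunized mice, where 9.58% and 0.798% of all genes were, with Dok2 (2.18, SE 0.44), an adaptor of inhibitory signalling, and Inppl1 (1.93, SE 0.32) near the top. Fitted values of Fcmr, Fcer2a, Fcrla, Fcrl5 and Fcrls, which had 0 UMIs in 14 to 22 of the groups formed by condition and gate, depend on the prior count, as do those of Blnk and Src with 0 UMIs in 6 and 5.

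Migratory DCs, in which 2 of the 6 receptor genes fell, had 12 of the 52 higher and 19 lower, with a median of -0.41 against 0.04 over all genes, of which 20.4% were higher and 9.93% lower. All 10 inhibitory signalling genes changed in them, 3 higher and 7 lower. Dok2 fell by 4.06 (SE 0.84) and the membrane adaptor Pag1 by 3.32 (SE 0.56), while the ubiquitin ligase Cblb rose by 3.25 (SE 0.17) and the adaptor Blnk by 4.95 (SE 0.40). B cells had 21 higher and 12 lower, where 15.2% and 9.43% of all genes were, with the IgM receptor gene Fcmr (10.84, SE 0.25) and the low-affinity IgE receptor gene Fcer2a (9.94, SE 0.29) in front and Tyrobp, a signalling chain related to Fcer1g, lower (-2.79, SE 0.23). In cDC1, Fcrla rose by 6.17 (SE 0.46). For immunization, 0 of 676 pairs of these genes and the 13 gates passed in edgeR, with 59 (8.73%) at an unadjusted p under 0.05. Over all genes 0.0552% of such pairs passed and 6.36% had an unadjusted p under 0.05.

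Over the 16 gates, the mean log2 levels of the activating genes and Fcer1g moved together, and Fcgr2b moved with them. Pearson's r was 0.93 between Fcgr3 and Fcer1g, 0.82 between Fcgr1 and Fcgr3 and 0.76 between Fcgr1 and Fcgr4. For Fcgr2b it was 0.80 with Fcgr4, 0.79 with Fcgr1, 0.65 with Fcgr3 and 0.64 with Fcer1g, and r of Fcgrt with Fcgr3 was 0.01 and with Fcgr2b 0.61. These are descriptions over 16 gates from the same 4 mice. Among 5270 genes, the 3 most like Fcgr1 were Lyz2 (0.947), Lamp2 (0.941) and Rnpep (0.922), and those most like Fcgr3 were Itgam (0.941), which encodes CD11b, Fcer1g (0.930) and Lilrb4a (0.921). Fcgr4 was most like Tmed7 (0.930), Plod3 (0.907) and Pla2g7 (0.905). For Fcer1g these were Tyrobp (0.953), Itgam (0.941) and Fcgr3 (0.930), and for Fcgr2b Tlr2 (0.949), Ctss (0.936) and Pik3r6 (0.933). Fcgrt stood with the MHC class II genes H2-Eb1 (0.918) and H2-Ab1 (0.900) and with BC028528 (0.897).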

How the data were processed

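Transcripts, surface antibodies and hashtags were measured in 2 captures of CD11b hi TOM+ cells of 4 mice. The authors aligned the reads to mm10 with Cell Ranger (4.0.0 in the submitters' notes), joined the captures, and deposited raw UMI counts per gene and cell, and counts per antibody and hashtag. The sources used here do not say if joining equalized reads between captures. The deposited counts are whole numbers and were used as they stand.

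Cells with at most 25% mitochondrial UMIs were kept, and a cell was assigned to a mouse where its top hashtag held at least 80% of its hashtag counts and at least 10 of them. Gate minimums were set from marker counts alone, without looking at the 6 genes. The members and gene lists were chosen with earlier results of these data known. UMIs were summed per mouse and gate and tested with edgeR (4.0.16) in R (4.3.3), by glmQLFit and glmQLFTest, with filterByExpr, TMM scaling and Benjamini-Hochberg adjustment over 11148 genes in each contrast. Levels and ratios were computed with pandas (2.3.3) and scipy (1.17.1). The rule for naming took all 6 members in every gate (some gates are given as ranges, counts or points of the plots), up to 3 rises and 3 falls among list genes past the threshold (a selection of these is printed), and the 3 genes most alike over gates whose mean log2 CPM was 4 or more. Alternatives were DESeq2 (1.42.0), limma-voom (limma 3.58.1), size factors, no filter, HTODemux (Seurat 5.3.0), Leiden clusters (scanpy 1.11.5), stricter gates, thinning, each capture, removal of likely doublets (a score with a fixed rate of 0.8% per 1000 barcodes) and each mouse left out. limma-voom, the removal of 2 or 5 libraries of immunized mouse 2 and the removal of the cDC2 gate were chosen after seeing the data. Doublets were not removed in the values reported. On simulated counts over 11148 genes, the C1q macrophage type contrast recovered 97% of 2-fold changes, and its immunization contrast recovered 25% of 2-fold and 99% of 4-fold changes. The immunization contrast of nonclassical monocytes recovered 34% and 97%. The C1q gate held the largest library, of 17214546 UMIs. The simulation gave every gene the same spread beyond counting error and drew libraries of the same mouse independently. It changed only genes above a minimum mean level. These shares need not hold for the data, for gates with smaller libraries or for genes with few UMIs. In the data, the immunization difference of Fcgr3 in cDC1 was 3.84 on the log2 scale and did not pass (adjusted p = 0.0898, edgeR).

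Libraries of different gates come from the same animal, which pairs them. The main fit left this pairing out. Deviations from the group mean of the same mouse in different gates had a median correlation of 0.02 in the unimmunized mice (0 of 45 pairs above 0.1). In the immunized mice the median was 0.06, with 17 of 45 above 0.1 and the highest at 0.48. Zero UMIs allow up to 3 counts, and intervals and floors cover counting error only. The 4918 cells of no gate and 630 of several gates entered no comparison. Gene positions are from GENCODE on GRCm38, and promoters were matched by symbol for all 6 genes.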

Additional observations from a re-analysis of the deposited data

Results flagged for a closer look

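In the 4918 cells that passed no gate, which entered no comparison, both immunized mice lay above both unimmunized mice for 5 of the 6 genes. In the order used above, Fcgr3 was at 69.3, 92.0, 143 and 291 CPM, and the log2 ratio of the immunized to the unimmunized mean was 1.43. Fcgr4 was at 12.3, 16.8, 29.3 and 83.7 (1.96), and Fcgr1 at 27.1, 45.3, 55.0 and 99.3 (1.09). Fcer1g was at 1611, 1942, 2608 and 3125 (0.69), and Fcgr2b at 185, 293, 342 and 423 (0.68). Fcgrt, at 20.3, 30.4, 18.8 and 39.7, overlapped. The difference was not tested, and the share of all genes that did so in these cells is not given, so the count has no background. These cells are a mixture, and a change in their mix and a change within a cell type cannot be told apart.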

How the results depend on the processing

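The count of 46 gene and type calls moved by over 1.5 times only with cells thinned to 1000 UMIs (28 of 65 pairs) and without unimmunized mouse 1 (24 of 66). The reason for these moves was not tested. Leaving out each mouse gave 24 to 55, and the other alternatives run gave 33 to 52. The single immunization call became 2 in DESeq2, 5 without the filter on low counts, 5 with Leiden clusters (all in migratory DCs) and 3 with the mouse as a replicate block, and it became 0 in limma-voom, HTODemux, stricter gates, capture 1, capture 2, libraries of at least 20 cells, thinned cells and without the 2, or all 5, DC and B cell libraries of immunized mouse 2 that stood apart. The count stayed at 1, Fcer1g in cDC1, with relative log expression size factors, a mitochondrial limit of 10% and likely doublets removed. With likely doublets removed the difference was 2.50 (adjusted p = 0.0170, edgeR). Leaving out each mouse gave 0 to 12. The replicate block gave 47 type calls in place of 46 and 0 of 6 differences between gates. Among these counts only that of immunization moved by over 1.5 times. Beside the calls named in the report for the block, the block changed no other. Over all genes, 128 of 144924 immunization pairs passed in DESeq2, 280 in limma-voom and 436 with the block, against 80 in edgeR without it. For the other alternatives the share over all genes is not given. The count of genes whose immunization difference varied between gates, 0, became 2 without the filter and 1 with Leiden clusters. It also rose without immunized mouse 1, which leaves 1 immunized mouse. The immunization difference of the ratio was 0.14 to 0.73 with a mouse left out and 0.09 to 0.92 otherwise, with 0.25 for 5 UMIs added, and the macrophage against DC difference was 1.59 to 2.22 and 1.04 to 2.88. Some of these alternatives held fewer gates than the main value. Neither difference changed sign, and neither could pass a threshold with 4 mice. The second could not be computed from libraries of at least 20 cells or without the DC libraries of immunized mouse 2. Of 1085 values of the 59 pairs called in any comparison, 1020 kept direction and call, 63 kept direction without the call and 2 changed sign: Fcgr1 in migratory DCs with Leiden clusters (0.55) and Fcgr1 in inflammatory macrophages without immunized mouse 2 (-0.035, and -0.035 to 1.35 with each mouse left out). The cause was not tested. Of the 59 pairs, 28 had a value in all 20 alternatives and 22 of these were called in each, while 38 were called in every alternative that gave them a value. Depth limits the small libraries most, where 0 UMIs allow a CPM of up to 65.4.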
